A study of Mus musculus with 12 samples.

Results

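A group of 8 genes listed as plasma cell survival receptors was followed in antigen-specific plasma cells that lacked, or carried, the transcription factor Zbtb32. The 8 genes were chosen by name: Tnfrsf17, Tnfrsf13b, Tnfrsf13c, Sdc1, Cd28, Cd93, Cd44 and Cd81. They were looked up among 19938 genes that had a probe set naming that gene alone. Each of the 8 had 1 such probe set, and all 8 passed the filter on low values, which left 14993 genes for testing.

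The tested cells were Zbtb32-/- plasma cells (6 arrays), set against plasma cells of genotype Zbtb32 +/+, called wild type here (6 arrays). In both groups, spleen cells came from CD45.2 mice that had been immunised with NP-CGG, the hapten NP on the carrier protein CGG. They were given to CD45.1 recipients, which were then challenged with NP-CGG. After 7 days, donor cells of the bone marrow were sorted that were CD138+, NP+ and CD45.2+ while lacking CD45.1, B220, Ly6g and CD11b. The genotype is that of the transferred donor cells, and the sources used here do not say how many animals stand behind an array or whether animals were pooled. The series text calls the 6 arrays of a genotype biological replicates. The labels of all 12 arrays give plasma cells, and were followed, although memory B cells stand in the title of the series.

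Plasma cells do not survive on their own: they depend on signals from their niche in the marrow. BCMA, TACI and BAFF-R are related receptors of the TNF receptor superfamily that bind the cytokine APRIL, BAFF or both. They signal through TRAF adaptors to NF-kappaB and to survival factors such as MCL1. CD28, CD93, CD44, CD81 and CD138 connect plasma cells to niche cells, matrix or membrane partners.

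Values were log2 RMA values, so that a difference of 1 is a 2-fold change. The median of an array lay between 6.28 and 6.43, and pairs of arrays correlated at 0.914 to 0.984 across all probe sets. Wild-type replicates 2 and 6 correlated least with the other arrays, with a mean of 0.933 and 0.938. The 12 plasma cell markers averaged 10.83 to 11.50 in Zbtb32-/- arrays and 10.69 to 11.53 in wild-type arrays. Transcripts of cells outside the sort gate were present as well: the 16 neutrophil markers averaged 8.84 to 12.11 in Zbtb32-/- arrays and 7.97 to 10.85 in wild-type arrays, although Ly6g+ and CD11b+ cells had been gated out. The 17 T and NK cell markers averaged 5.87 to 6.26 in Zbtb32-/- arrays and 5.87 to 6.72 in wild-type arrays. The 2 of these with the highest means, Cd2 and Nkg7, averaged 7.74 and 7.25 over the 12 arrays. Cd2 reached 8.53 on a wild-type array and Nkg7 9.41 on a Zbtb32-/- array, while 3 of the 17 markers averaged below the filter at 5.49. The T cell receptor subunits Cd3d, Cd3e and Cd3g, which define T cells, averaged 5.68, 6.68 and 5.59. Cd3d and Cd3g were highest on wild-type replicate 6, at 7.80 and 7.78. On a log2 RMA scale no marker is listed at 0. In sorted populations measured in bulk, fewer cells of a type and less RNA per cell cannot be told apart.

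The promoters of Tnfrsf17, Tnfrsf13b and Sdc1 are shown because these genes formed the most correlated pairs among the 8, as described further on. Each sequence, from RefSeq on build GRCm38.p6, runs from 250 bases before to 50 bases after the annotated start, on the gene's own strand. Capitals mark matches to the motifs named below.
Tnfrsf17: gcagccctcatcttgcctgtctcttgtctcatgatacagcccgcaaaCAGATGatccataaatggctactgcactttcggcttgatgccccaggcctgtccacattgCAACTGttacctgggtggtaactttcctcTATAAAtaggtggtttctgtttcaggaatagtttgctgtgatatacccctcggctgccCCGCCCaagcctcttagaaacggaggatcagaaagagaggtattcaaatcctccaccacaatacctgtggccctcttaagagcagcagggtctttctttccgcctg
Tnfrsf13b: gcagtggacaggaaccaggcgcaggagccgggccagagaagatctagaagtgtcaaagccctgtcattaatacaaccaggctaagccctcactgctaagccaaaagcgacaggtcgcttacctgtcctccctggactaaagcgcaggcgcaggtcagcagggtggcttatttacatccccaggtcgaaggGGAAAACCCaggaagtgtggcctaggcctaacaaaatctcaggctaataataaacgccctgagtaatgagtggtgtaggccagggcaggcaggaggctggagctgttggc
Sdc1: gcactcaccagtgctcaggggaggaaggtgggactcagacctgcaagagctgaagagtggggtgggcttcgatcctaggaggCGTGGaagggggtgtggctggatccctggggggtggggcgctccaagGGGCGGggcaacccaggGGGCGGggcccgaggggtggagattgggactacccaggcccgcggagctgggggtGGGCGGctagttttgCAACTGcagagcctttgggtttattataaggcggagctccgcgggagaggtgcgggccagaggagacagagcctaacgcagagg
The Tnfrsf17 window lies at chr16:11313559-11313858 on the plus strand, the Tnfrsf13b window at chr11:61126505-61126804 on the plus strand and the Sdc1 window at chr12:8771146-8771445 on the plus strand. Of the 8 genes, 6 had a promoter in the table. Both strands were searched for the letters TATAAA of a TATA element, for CAGNTG, the E box bound by E2A proteins, and for GGGCGG, known as the GC box. The other searches were for GGGNNTTCC as an NF-kappaB type site, for CCACG as the core of the unfolded protein response element and for TGACG as the core of a CRE. The Tnfrsf17 window held 1 TATA box at position -114 from the start, 2 E boxes and 1 GC box. The Tnfrsf13b window held 1 NF-kappaB type match at position -60, and the Sdc1 window held 3 GC boxes, 1 E box and 1 CCACG core. Among 32851 promoters of the same length, 13.6% held the TATA letters, 51.4% an E box, 35.7% a GC box, 5.82% an NF-kappaB type match and 32.8% a CCACG core. TGACG occurred in 20.8% of promoters and in none of these 3 windows. A match describes the letters only. G and C made up 50% of the Tnfrsf17 window, 55.3% of the Tnfrsf13b window and 66.3% of the Sdc1 window, against a median of 52.67% over all promoters.

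The first comparison asked whether loss of Zbtb32 altered the transcripts of these receptors. No receptor gene passed the test: all 8 differed between genotypes by less than the arrays within a genotype could resolve. Differences were positive for 5, Tnfrsf13b, Tnfrsf13c, Sdc1, Cd44 and Cd81 (beside 52.9% of all genes), and negative for Tnfrsf17, Cd28 and Cd93. Cd93 had the largest difference in size, 1.25-fold lower in Zbtb32-/- cells. The count of 0 of 8 stands beside 0% of the 14993 genes at an adjusted p under 0.05 by limma with Benjamini-Hochberg adjustment, and beside 4.28% of all genes (642) at an unadjusted p under 0.05, a threshold that none of the 8 passed either. The median difference of the 8 was 0.09, against 0.01 over all genes tested.

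Tnfrsf17 encodes BCMA, the APRIL receptor that marks mature plasma cells. Its lowest, median and highest values were 7.88, 8.65 and 8.79 in Zbtb32-/- arrays and 8.12, 8.70 and 9.43 in wild-type arrays. The groups overlapped, and both ends of the range came from single arrays, Zbtb32-/- replicate 6 at the low end and wild-type replicate 2 at the high end. The means were 8.55 ± 0.34 in Zbtb32-/- cells and 8.72 ± 0.45 in wild-type cells (SD, n = 6 each), a difference of -0.17 with a 95% interval of -0.63 to 0.30 (limma, adjusted p = 0.947; two-sided exact permutation p = 0.489).

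Tnfrsf13b encodes TACI, which binds both APRIL and BAFF. Zbtb32-/- arrays ran from 9.15 to 9.91 with a median of 9.66, and wild-type arrays from 8.97 to 9.88 with a median of 9.55. The ranges nearly coincided. The difference was 0.08 (95% interval -0.28 to 0.44; limma, adjusted p = 0.964). It changed sign, to -0.03, when the arrays were quantile normalized again. Tnfrsf13c encodes BAFF-R, the BAFF receptor of mature B cells. Its values were 8.21, 8.66 and 8.96 (lowest, median and highest) in Zbtb32-/- arrays, against 8.29, 8.51 and 8.86 in wild-type arrays. The wild-type range lay wholly inside the Zbtb32-/- range, and the difference was 0.12 (95% interval -0.20 to 0.43; limma, adjusted p = 0.944).

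Sdc1 encodes syndecan-1, or CD138, a heparan sulfate proteoglycan. The cells had been sorted on this protein, so that a high level says nothing further about them. Zbtb32-/- arrays ran from 10.70 to 11.25 with a median of 11.12, and wild-type arrays from 10.32 to 11.34 with a median of 10.93. Every Zbtb32-/- array lay within the wild-type range. The difference was 0.11 (95% interval -0.26 to 0.47; limma, adjusted p = 0.958).

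Cd28 encodes the costimulatory receptor for CD80 and CD86, which plasma cells carry as T cells do. Its lowest, median and highest values were 7.19, 8.48 and 8.78 in Zbtb32-/- arrays, against 8.12, 8.45 and 9.21 in wild-type arrays. The low end was again Zbtb32-/- replicate 6, where the next array of its group read 8.11, and the high end was wild-type replicate 1. The means were 8.29 ± 0.60 in Zbtb32-/- cells and 8.49 ± 0.40 in wild-type cells (SD, n = 6 each), a difference of -0.19 (95% interval -0.76 to 0.38; limma, adjusted p = 0.949). Without Zbtb32-/- replicate 6 the difference was 0.03, and without wild-type replicate 6, where Cd3d and Cd3g were highest, it was -0.19.

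Cd93 encodes a C-type lectin-like glycoprotein required for the upkeep of antibody secretion and of long-lived plasma cells in mouse marrow. Its values were 8.87, 9.12, 8.62, 8.61, 9.55 and 8.75 in Zbtb32-/- replicates 1 to 6, against 9.02, 9.05, 9.01, 9.41, 9.52 and 9.44 in wild-type replicates 1 to 6. In Zbtb32-/- cells 4 of 6 arrays lay below the lowest wild-type array, while replicate 5 was the highest of all 12. The means were 8.92 ± 0.36 in Zbtb32-/- cells and 9.24 ± 0.24 in wild-type cells (SD, n = 6 each), a difference of -0.32 with a 95% interval of -0.70 to 0.06. It missed the threshold before adjustment (limma, p = 0.0893, adjusted p = 0.933; two-sided exact permutation p = 0.0996). The sign held whichever array was left out, with values from -0.45 to -0.26. Of 26 alternatives, 2 brought Cd93 under an unadjusted p of 0.05, renewed quantile normalization (-0.43) and leaving out Zbtb32-/- replicate 5 (-0.45), and neither passed after adjustment (limma, adjusted p = 0.995 and 0.984). CD93 is also carried by immature B cells and by myeloid cells. The 10 B cell precursor markers averaged 7.02 to 7.95 in Zbtb32-/- arrays and 7.22 to 8.58 in wild-type arrays. Of their differences 8 of 10 were negative, with a median of -0.39. None passed the adjusted threshold, and 2 were lower at an unadjusted p under 0.05, beside 4.28% of all genes in either direction. The 14 monocyte markers averaged 7.41 to 8.68 in Zbtb32-/- arrays and 6.91 to 9.30 in wild-type arrays. Of these 12 of 14 had negative differences, with a median of -0.28 and none under the unadjusted threshold. Over all genes 52.9% of differences were positive, and the median was 0.01. Over the 12 arrays Cd93 correlated at 0.27 with the precursor mean and at 0.51 with the monocyte mean (permutation test, adjusted p = 0.566 and 0.259). Without the 2 arrays farthest from the median of each list, these were 0.46 and 0.65. Within wild-type arrays they were 0.64 and 0.91, and within Zbtb32-/- arrays -0.37 and 0.14. With the mean of neutrophil, monocyte, erythroid and T and NK cell markers as a term, the Cd93 difference was -0.33 (standard error 0.17). That term held no precursor markers. The part of precursors and monocytes in the Cd93 value was not tested beyond this fit.

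Cd44 encodes a hyaluronan receptor, and Cd81 a tetraspanin of the B cell co-receptor complex. For Cd44, Zbtb32-/- arrays ran from 8.36 to 9.04 with a median of 8.80, and wild-type arrays from 8.32 to 8.89 with a median of 8.49. For Cd81, Zbtb32-/- arrays ran from 10.68 to 11.31 with a median of 11.17, and wild-type arrays from 10.41 to 11.36 with a median of 10.75. Both genes overlapped between genotypes. For Cd81 every Zbtb32-/- array lay within the wild-type range, while for Cd44 Zbtb32-/- replicates 1 and 5, at 8.97 and 9.04, lay above the highest wild-type array. The differences were 0.18 for Cd44 (95% interval -0.15 to 0.50; limma, adjusted p = 0.933) and 0.20 for Cd81 (95% interval -0.17 to 0.58; limma, adjusted p = 0.933).

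**Figure D1:**
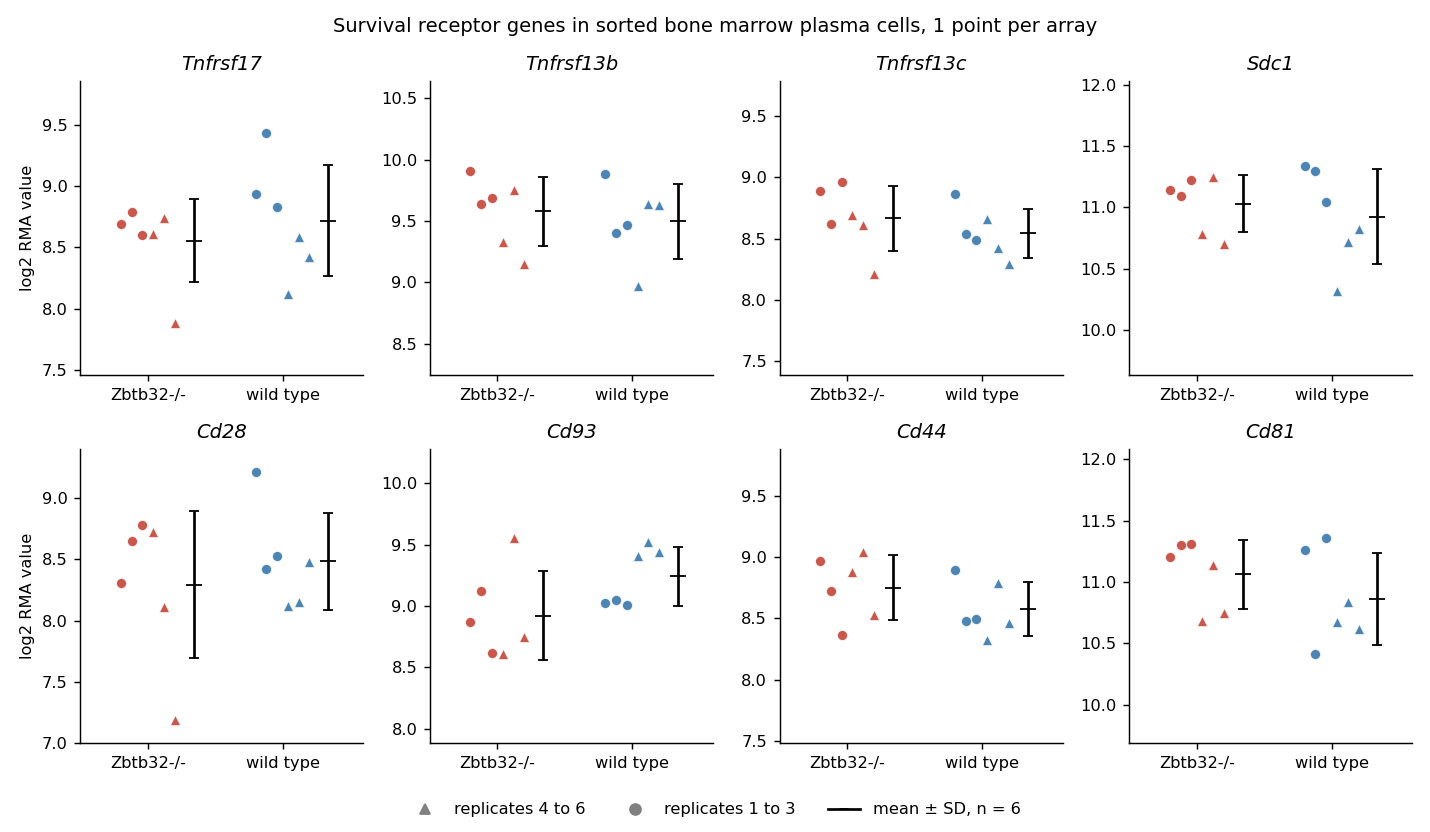
Log2 RMA values of the 8 receptor genes on each array, 1 panel per gene, with Zbtb32-/- arrays in red and wild-type arrays in blue; triangles are replicates 4 to 6, circles replicates 1 to 3, and bars the mean ± SD of 6 arrays. The genotypes overlap in every panel, and Zbtb32-/- replicate 6 is the lowest array for Tnfrsf17, Tnfrsf13c and Cd28.

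The width of these intervals sets how large a change could have been missed. A 2-fold change in either direction lay outside the 95% interval of all 8 receptor genes, as it did for 95.3% of all genes tested. A 1.5-fold change lay outside the interval for 5 of the 8, Tnfrsf13b, Tnfrsf13c, Sdc1, Cd44 and Cd81, beside 73.4% of all genes. For Tnfrsf17, Cd28 and Cd93 a fall of 1.5-fold was within the interval. A missed threshold therefore does not show that these 3 genes were equal in both genotypes.

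The receptors also differed in how much they varied within a genotype. Cd28 was the most variable of the 8, with a residual SD of 0.51, higher than that of 91.1% of genes tested, and a 4.05-fold range over the 12 arrays. Tnfrsf17 followed with a residual SD of 0.40 and a 2.93-fold range. Tnfrsf13c and Cd44 varied least, with residual SDs of 0.23 and 0.24 and ranges of 1.68-fold and 1.65-fold. Of the 8 genes, 6 had a residual SD above the median of all genes, 0.249.

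**Figure D2:**
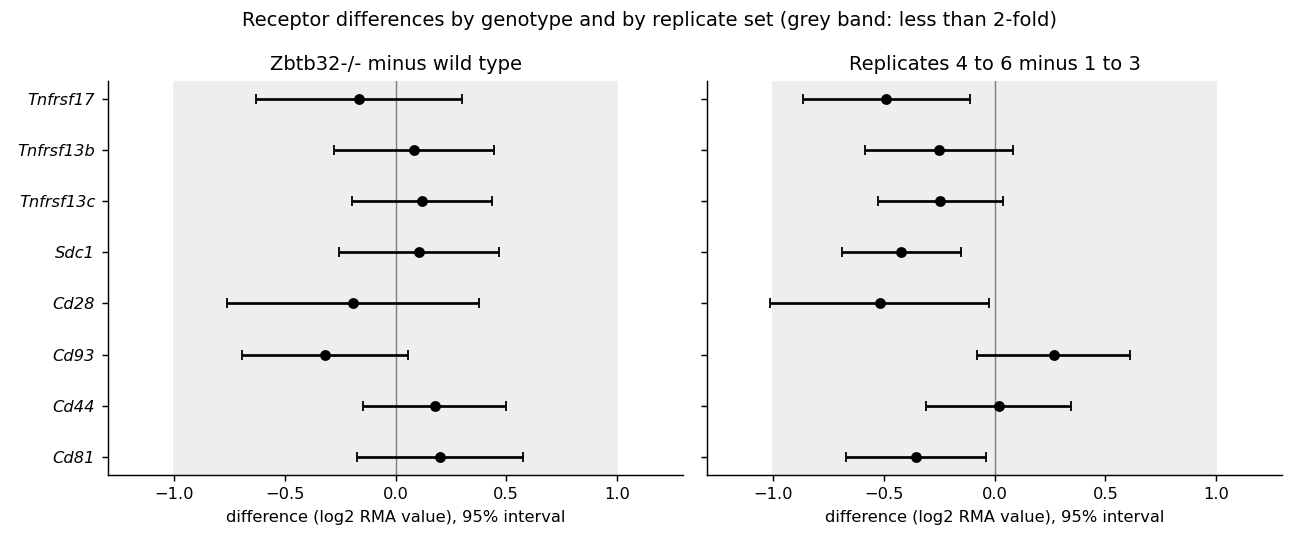
Difference of each receptor gene with its 95% interval, on the left for Zbtb32-/- minus wild type and on the right for replicates 4 to 6 minus replicates 1 to 3; the grey band marks less than 2-fold. All 8 genotype intervals include 0 and stay within the band, while Tnfrsf17, Sdc1, Cd28 and Cd81 have intervals below 0 on the right.

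The second comparison followed the replicate numbers. A split between replicates 4 to 6 and 1 to 3 had been seen in earlier work on these data; the labels name no batch, and both sets hold 3 arrays of each genotype. The receptors read mostly lower in replicates 4 to 6: 6 of the 8 differences were negative, for Tnfrsf17, Tnfrsf13b, Tnfrsf13c, Sdc1, Cd28 and Cd81, while those of Cd93 and Cd44 were positive. The negative share over all genes was 61.2%, and the median difference was -0.30 for the 8 genes and -0.06 for all genes. None of the 8 passed the adjusted threshold, which 6.52% of all genes passed (977 genes, 307 higher and 670 lower, the lower ones 4.47%, by limma with genotype as a term). When the arrays were quantile normalized again, 585 genes passed, 305 higher and 280 lower. At an unadjusted p under 0.05, 4 of the 8 receptors were lower, Tnfrsf17, Sdc1, Cd28 and Cd81, beside 17.8% of all genes lower and 25.9% in either direction.

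Sdc1 averaged 10.77 ± 0.30 in replicates 4 to 6, against 11.19 ± 0.12 in replicates 1 to 3 (SD, n = 6 each). Its difference of -0.42 had the smallest p of the 8 (limma, adjusted p = 0.0596). Of the 12 fits that left out 1 array, it passed in 1, without Zbtb32-/- replicate 5 (-0.52, limma, adjusted p = 0.0172). That was the 1 high array of the later set, at 11.25, so that its removal enlarges the difference. Tnfrsf17 averaged 8.39 ± 0.33 in replicates 4 to 6, against 8.88 ± 0.29 in replicates 1 to 3, a difference of -0.49 (limma, adjusted p = 0.102). The difference of Cd28 was -0.52 (limma, adjusted p = 0.172) and that of Cd81 was -0.36 (limma, adjusted p = 0.150). Cd81 passed in 1 of the 12 fits that left out 1 array, without wild-type replicate 2 (-0.50, limma, adjusted p = 0.0207). That was its lowest array, in the higher set, and its removal likewise enlarges the difference.

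Markers of several other cell types moved with the replicate sets, with the largest median differences for neutrophils (1.43) and monocytes (1.00). All 16 neutrophil markers and all 14 monocyte markers had positive differences, with 9 and 2 past the adjusted threshold, and the neutrophil mean ran from 9.68 to 12.11 in replicates 4 to 6 and from 7.97 to 10.40 in replicates 1 to 3. Of the 9 erythroid markers 8 had negative differences, with a median of -0.08. Among 14 T and NK cell markers tested 3 were negative, with a median of 0.20, and none of either list passed. For endothelial, stromal and megakaryocyte markers, 1 of 11 tested was negative and 2 passed. The mean of that list was 6.31 to 7.03 in replicates 4 to 6 and 6.02 to 6.25 in replicates 1 to 3. B cell precursor markers had 0 of 10 negative and 1 past the threshold, and B cell markers 3 of 13 negative and 1 past it. The 12 plasma cell markers, which include Sdc1 and Tnfrsf17, were all negative, 4 of them past the threshold, with a mean of 10.69 to 11.31 in replicates 4 to 6 and 11.35 to 11.53 in replicates 1 to 3. With the mean of the 4 lists of other cells (neutrophils, monocytes, red cell precursors, and T with NK cells) as a term in the fit, the difference of Tnfrsf17 was -0.16, that of Sdc1 -0.27, that of Cd28 -0.27 and that of Cd81 -0.58. None of these passed, with adjusted p of 0.668, 0.385, 0.661 and 0.146 by limma. The part of other cells in the set difference was not tested beyond this fit, which left out the B cell, precursor and stromal lists.

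The difference between genotypes did not itself differ detectably between the sets. No receptor had an interaction of genotype and set at an unadjusted p under 0.05, beside 3.86% of all genes, and the adjusted p was 0.998 for each of the 8 by limma. For Cd93 the genotype difference was -0.49 in replicates 4 to 6 and -0.15 in replicates 1 to 3. For Tnfrsf17 it was 0.04 in replicates 4 to 6 and -0.37 in replicates 1 to 3, and for Sdc1 it was 0.29 in replicates 4 to 6 and -0.08 in replicates 1 to 3. The remaining 5 genes, which were Tnfrsf13b, Tnfrsf13c, Cd28, Cd44 and Cd81, kept 1 sign in both sets, with Cd81 at 0.15 in replicates 4 to 6 and 0.26 in replicates 1 to 3.

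**Figure D3:**
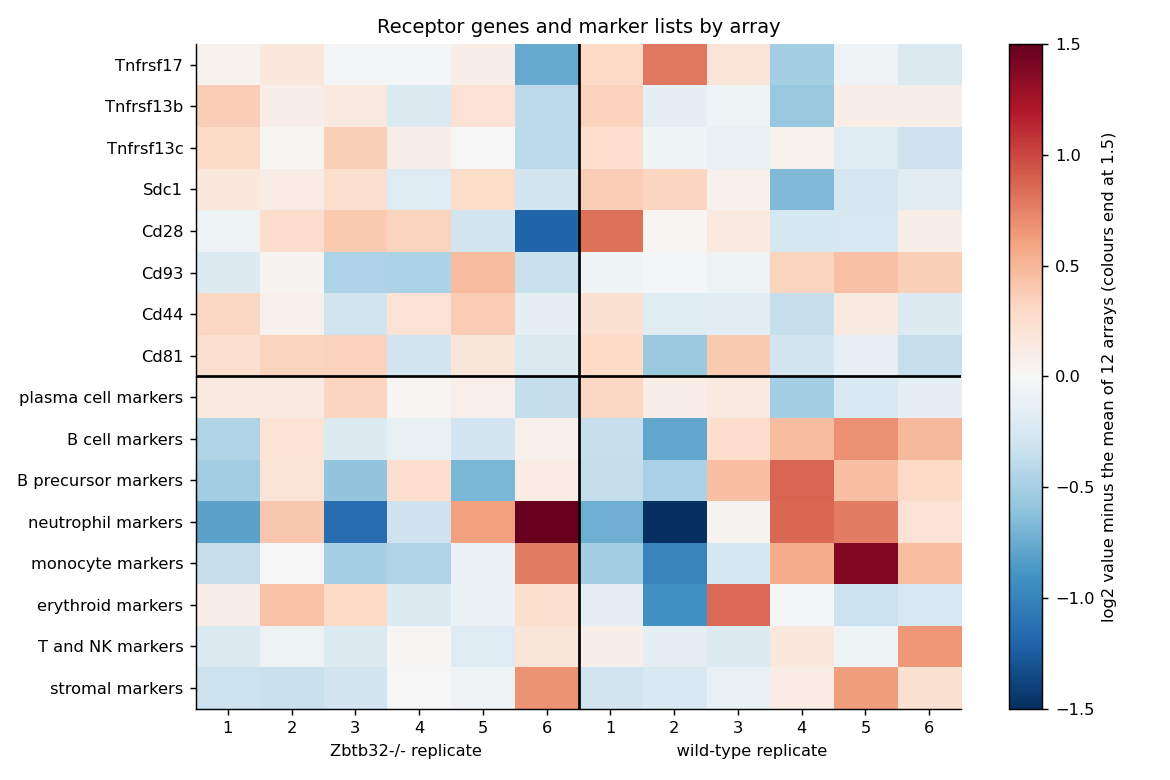
Log2 value of each receptor gene (upper block) and mean of each marker list (lower block) on each array, minus its mean over the 12 arrays; Zbtb32-/- arrays are on the left and wild-type arrays on the right, and colours end at 1.5 in both directions. The neutrophil row reaches its highest value on Zbtb32-/- replicate 6, where Tnfrsf17 and Cd28 have their lowest, and its lowest on wild-type replicate 2, where Tnfrsf17 has its highest.

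No pair of receptor genes had a correlation past the adjusted threshold across the 12 arrays. Of the 28 pairs of receptor genes, 23 had a positive Pearson correlation, and the 5 with a negative value all included Cd93. Within replicates 4 to 6, 4 pairs were negative, and within replicates 1 to 3, 11 were, among them Tnfrsf17 with Cd81 at -0.90, which was 0.14 over the 12 arrays. The highest were Tnfrsf17 with Sdc1 (r = 0.77, rho = 0.81) and Tnfrsf13b with Sdc1 (r = 0.75, rho = 0.70). Neither passed after adjustment over the 84 relations computed, the 28 pairs and 56 with marker lists (permutation test, adjusted p = 0.0521 and 0.0583 for r). Without the 2 arrays farthest from the median, r was 0.86 for Tnfrsf17 with Sdc1 and 0.41 for Tnfrsf13b with Sdc1. For Tnfrsf17 with Sdc1, r was 0.66 within replicates 4 to 6 and 0.48 within replicates 1 to 3. For Tnfrsf13b with Sdc1 it was 0.83 within replicates 4 to 6 and 0.21 within replicates 1 to 3, over 6 arrays each. The genes of a pair were read from the same arrays, and so from the same mix of cells.

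Of the 56 relations with marker lists, 0 passed the adjusted threshold by r. The strongest were Sdc1 with the B cell precursor mean (r = -0.85) and Tnfrsf17 with the neutrophil mean (r = -0.81). Their adjusted p was 0.0521 each by permutation test. Tnfrsf13c with the endothelial, stromal and megakaryocyte mean (r = -0.77) and Cd81 with the erythroid mean (r = 0.74) had the same adjusted p. For Cd81 with the erythroid mean, r was 0.53 without the 2 farthest arrays. It was 0.02 within replicates 4 to 6 and 0.89 within replicates 1 to 3. A further family of 16 relations, adjusted by itself, was chosen after the data were seen. Each receptor was set against the mean of 10 plasma cell markers other than the receptors. It was also set against the mean of the 4 lists of other cells. Sdc1 followed the plasma cell markers most closely, with r = 0.91 and rho = 0.78 (n = 12; permutation test, adjusted p = 0.00112 for r), 0.81 without the 2 farthest arrays, 0.87 within replicates 4 to 6 and 0.45 within replicates 1 to 3. Cd28, Tnfrsf13b and Tnfrsf17 had r of 0.73, 0.74 and 0.72 with them (permutation test, adjusted p = 0.0251 each). Without the 2 farthest arrays these were 0.64, 0.29 and 0.37, and for Tnfrsf17 the value was -0.46 within replicates 1 to 3, so that the relations of Tnfrsf13b and Tnfrsf17 rested on wild-type replicate 4 and Zbtb32-/- replicate 6.

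Tnfrsf17 ran opposite to the markers of other cells, with r = -0.84 and rho = -0.71 (n = 12; permutation test, adjusted p = 0.00848 for r). This was lower than the same correlation of all but 0.447% of the genes tested. It was -0.79 within replicates 4 to 6 and -0.68 within replicates 1 to 3, and -0.49 without wild-type replicate 2 and Zbtb32-/- replicate 6. Sdc1 had r = -0.69 (rho = -0.84; permutation test, adjusted p = 0.0365 for r) and -0.66 without those 2 arrays. Cd28 and Tnfrsf13c had r of -0.62 and -0.60 (permutation test, adjusted p = 0.0579 each for r, 0.0798 and 0.037 for rho). Without those 2 arrays the values were -0.64 and -0.82, and within replicates 1 to 3 they were 0.15 and -0.10. Tnfrsf13b and Cd44 had r of -0.36 and -0.11. Cd93 and Cd81 did not run opposite to other cells over the 12 arrays, with r of 0.32 and 0.00. Without wild-type replicate 2 and Zbtb32-/- replicate 6 these were 0.82 and -0.47. They were 0.07 and -0.13 within replicates 4 to 6, and 0.17 and 0.87 within replicates 1 to 3. For Cd81 the 4 lists differed, with r of 0.74 for erythroid, -0.05 for neutrophil, -0.20 for monocyte and -0.51 for T and NK cell markers.

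**Figure D4:**
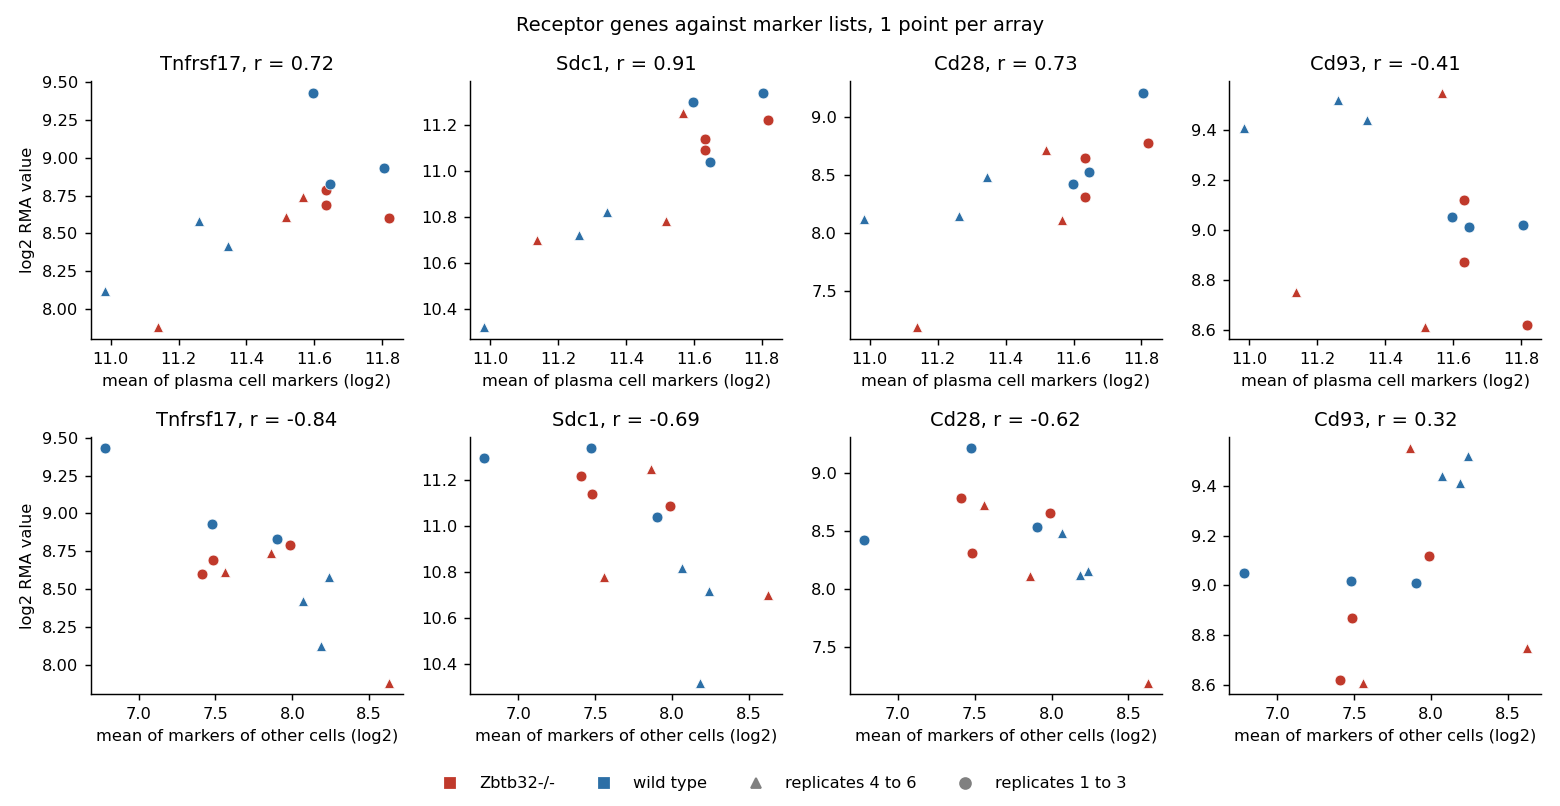
Log2 value of Tnfrsf17, Sdc1, Cd28 and Cd93 on each array against the mean of the plasma cell markers other than the receptors (upper row) and against the mean of the 4 lists of other cells (lower row); Zbtb32-/- arrays are red, wild-type arrays blue, and triangles are replicates 4 to 6. Sdc1 climbs with the plasma cell markers at r = 0.91, and Tnfrsf17 drops with the other markers at r = -0.84.

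The genes whose values were most like each receptor were found by Pearson correlation over the 12 arrays among all genes tested, as a description. Sdc1 was closest to Edem1, which helps to dispose of misfolded glycoproteins in the endoplasmic reticulum and is itself on the plasma cell list, and to Fut8, a fucosyltransferase of the Golgi, at 0.96 each. Cd81 was closest to Kat7, a histone acetyltransferase, and Prmt7, an arginine methyltransferase, at 0.96 each. Tnfrsf17 was closest to Btf3l4 at 0.96 and to Prdx3, a mitochondrial peroxiredoxin, at 0.95. For Cd28 the closest were Cep68 (0.94) and Mon2 (0.88), for Cd44 Ptpn11 (0.92) and Gtf2a1 (0.90), for Tnfrsf13b Neil1 (0.91) and Pqlc3 (0.90), and for Tnfrsf13c Tarsl2 (0.90) and Abcb8 (0.89). Cd93 had the loosest partners, Mpv17l at 0.85 and Aknaos at 0.83.

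The pathway around the receptors was then read from lists of their ligands, signalling components and partners. By genotype, 0 genes of the 9 lists passed the adjusted threshold, and the medians of the lists lay between -0.05 and 0.05, beside 0.01 for all genes. The genotype counts of these lists are read beside 52.9% of all genes with a positive difference and 4.28% at an unadjusted p under 0.05. Of 9 ligands and niche partners tested, 6 had positive and 3 negative differences. Cd80, a ligand of CD28, differed by 0.27, and Mif, a ligand of the CD74 and CD44 complex, by 0.10. Lgals1, the lectin galectin-1, differed by 0.08 and Srgn, the proteoglycan serglycin, by 0.01. The difference of Tnfsf13b, which encodes BAFF and is named here outside the rule for named genes, was 0.09 with a standard error of 0.43.

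Of 19 other TNF receptor relatives, 11 were positive and 8 negative. Tnfrsf18, which encodes GITR, was the only one at an unadjusted p under 0.05. It averaged 7.68 ± 0.19 in Zbtb32-/- cells and 7.29 ± 0.35 in wild-type cells (SD, n = 6 each), a difference of 0.39 (limma, adjusted p = 0.933). The death receptor genes Fas and Tnfrsf10b differed by 0.11 and -0.18, and Ngfr, a neurotrophin receptor, by -0.10. Of 24 TRAF and NF-kappaB genes, 15 were positive and 9 negative, with none at an unadjusted p under 0.05. Map3k7, the kinase TAK1, differed by 0.37, Traf5 by -0.21, the kinase gene Ikbkb by 0.17, and Nfkbia, the inhibitor of NF-kappaB, by -0.14.

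Among 14 genes of the BCL2 family and PIM kinases, some of which promote cell death and some survival, 6 were positive and 8 negative. Bid, a BH3-only protein that promotes cell death, averaged 8.84 ± 0.12 in Zbtb32-/- cells and 8.21 ± 0.32 in wild-type cells (SD, n = 6 each). The ranges overlapped only at their edges, 8.64 to 8.98 in Zbtb32-/- arrays and 7.91 to 8.67 in wild-type arrays. Its difference of 0.63 had an unadjusted p of 0.000817 and an adjusted p of 0.933 by limma, and was 0.67 in replicates 4 to 6 and 0.60 in replicates 1 to 3. Mcl1, the survival factor that BCMA signalling maintains in marrow plasma cells, differed by -0.02 with a 95% interval of -0.31 to 0.27. Bcl2l11, which encodes BIM, differed by -0.15, and Pmaip1, which encodes NOXA, by -0.22.

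Of 12 proteases and inhibitors tied to receptor shedding, 5 were positive and 7 negative. The gamma-secretase, which cleaves BCMA, had subunit genes in both directions: Aph1b, at an unadjusted p under 0.05, differed by -0.51 (limma, adjusted p = 0.933), Aph1a by 0.28 and Psenen by 0.14. Heparan sulfate synthesis, which builds the chains of syndecan-1, had 15 positive and 5 negative differences among 20 genes, with Ext1, a chain polymerase, at 0.41, Fam20b, a xylose kinase, at 0.36 and Ndst2, a sulfotransferase, at 0.14. Of 18 CD28 relatives and signalling genes, 9 were positive and 9 negative, with the kinases Fyn and Akt2 at 0.36 and 0.12, the adaptor Bcl10 at -0.18 and Icos at -0.22. Of 19 tetraspanins and CD81 partners, 11 were positive and 8 negative, with the tetraspanins Tspan4 at -0.51, Cd82 at 0.32 and Tspan13 at 0.08, and the CD81 partner Ptgfrn at -0.10. Of 18 adhesion genes, 9 were positive and 9 negative, with the integrin subunits Itgb2 at 0.36 and Itga4 at 0.18, thrombomodulin (Thbd) at 0.22 and Cd74 at -0.03. None of the genes in these last 4 lists reached an unadjusted p under 0.05.

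**Figure D5:**
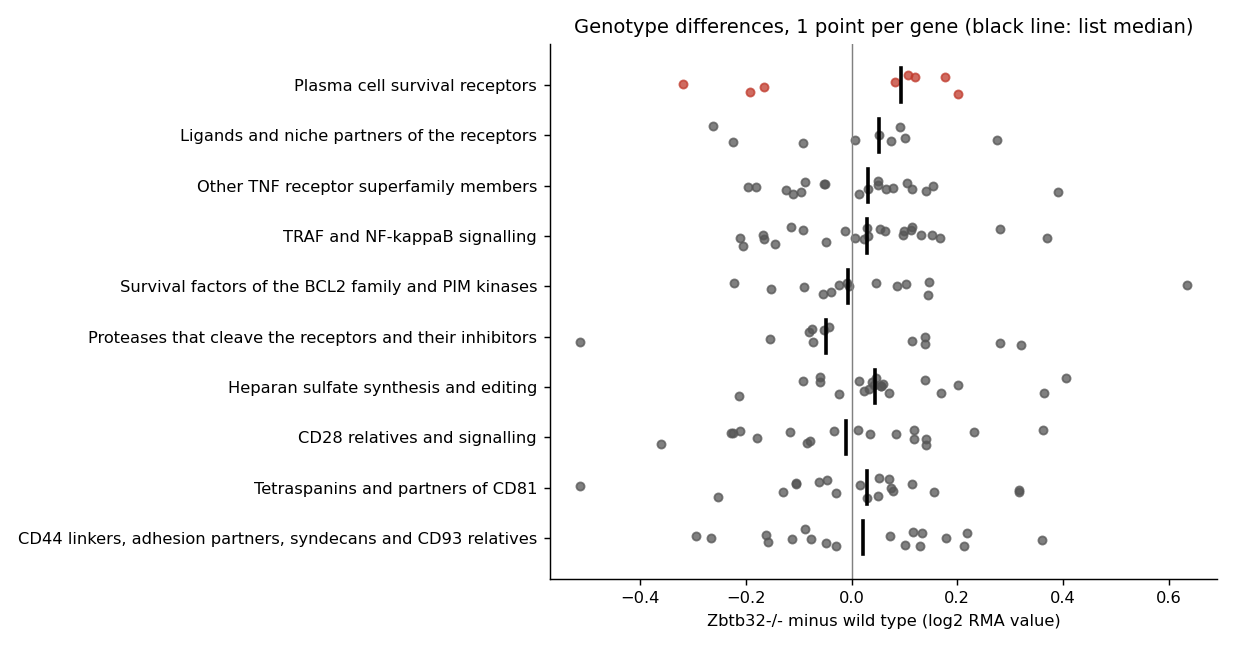
Difference between Zbtb32-/- and wild-type cells for each gene of the receptor list (red) and of 9 lists of ligands, signalling genes and partners (grey), on the log2 scale; black bars are list medians. The medians lie near 0, and Bid stands farthest to the right at 0.63.

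By replicate set, genes of 8 of these 9 lists passed the threshold; the counts are read beside 6.52% of all genes past it, 4.47% past it and lower, and 61.2% with a negative difference. Of 24 TRAF and NF-kappaB genes, 18 had negative differences and 4 fell past the adjusted threshold in replicates 4 to 6: Nfkbia, Birc2, Nfkb2 and Tnfaip3. Nfkbia averaged 10.15 ± 0.17 in replicates 4 to 6, against 10.97 ± 0.23 in replicates 1 to 3 (SD, n = 6 each), and the sets did not overlap, as for 3.9% of all genes, 2.86% with replicates 4 to 6 lower. It fell by 0.82 on the log2 scale (limma, adjusted p = 0.00549), and passed in all 12 fits that left out 1 array. Birc2, which encodes the ubiquitin ligase cIAP1, fell by 0.73, the NF-kappaB subunit gene Nfkb2 by 0.55 and Tnfaip3, which encodes the deubiquitinase A20, by 0.60. Birc2 passed in 7, Nfkb2 in 3 and Tnfaip3 in 1 of those 12 fits. Of 14 genes of the BCL2 family and PIM kinases, 13 were negative and 2 passed. The negative ones include genes that promote cell death, such as Bid, Bcl2l11 and Pmaip1, as well as survival genes. The 2 that passed, the PIM kinases Pim1 and Pim2, fell by 0.45 and 0.54, passing in 4 and 3 of the 12 fits. After renewed quantile normalization Nfkbia still passed (-0.67, limma, adjusted p = 0.0128), while Birc2, Nfkb2, Tnfaip3, Pim1 and Pim2 kept their sign and did not pass, with adjusted p of 0.0539 to 0.115. Mcl1 differed by -0.28 without passing (limma, adjusted p = 0.142).

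Partners of the other receptors passed in both directions. Cd74, the invariant chain and a partner of CD44, fell by 0.43 in replicates 4 to 6 (limma, adjusted p = 0.0104), and Lcp2, the adaptor SLP-76, was higher by 1.04 (limma, adjusted p = 0.0168), and both passed in all 12 fits that left out 1 array. Ctla4, the inhibitory relative of CD28, fell by 1.32, passing in 6 of them. Tnfrsf1a, the TNF receptor 1 gene, was higher by 1.24, passing in all but the fit without wild-type replicate 1. Of 18 CD28 relatives and signalling genes, 2 passed, which were Ctla4 and Lcp2, and of 19 other TNF receptor relatives 1 passed, Tnfrsf1a. Of 19 tetraspanins and partners of CD81, 7 passed in both directions. The tetraspanins Cd151, Tspan13 and Tspan31 fell by 0.66, 0.37 and 0.60, passing in 1, 3 and 9 of the 12 fits, and Cr2, the complement receptor of the CD81 complex, was higher by 0.77, passing in 6. The interferon-induced membrane proteins Ifitm1, Ifitm2 and Ifitm3, a family whose human member IFITM1 associates with CD81, were higher by 1.94, 1.63 and 1.11, passing in 10, 5 and 3 of the 12 fits. Of 20 heparan sulfate genes, the xylosyltransferase gene Xylt2 and the glycosyltransferase gene Extl2 fell by 0.44 and 0.50, passing in 3 and 4 of the 12 fits. Of 12 shedding genes 1 passed, the neutrophil protease gene Mmp9, higher by 1.57 and passing in 1 of the 12 fits. Of 18 adhesion genes 3 passed, Cd74 and, both higher, the CD44 linker moesin (Msn) by 0.41 and Mmrn2, a ligand of CD93, by 0.51, passing in 2 and 6 of the fits. After renewed quantile normalization Ctla4 did not pass (limma, adjusted p = 0.0537), and Cd74, Lcp2, Tnfrsf1a and the 3 Ifitm genes did. Cd151, Tspan13, Cr2, Xylt2 and Extl2 did not pass then either, while Tspan31, Msn, Mmrn2 and Mmp9 did. With the markers of other cells as a term, none of the genes named by replicate set passed. For Nfkbia the difference was then -0.72 (limma, adjusted p = 0.0675), for Cd74 -0.33, for Lcp2 0.69, for Ctla4 -0.69 and for Tnfrsf1a 0.71.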

How the data were processed

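RNA of sorted plasma cells was amplified and hybridised to Affymetrix mouse gene arrays, 12 in all. The deposited table holds log2 values which the authors made by RMA, with Affymetrix Expression Console named in the submitters' processing notes. Versions are not given in the sources used here. The method corrects background and quantile normalizes the arrays together, a step meant to remove overall shifts between them. In the deposited values the array medians still ran from 6.28 to 6.43. The number of arrays limits the precision. Of 35556 probe sets, 21789 named 1 gene, 1621 several and 12146 none in the platform annotation, which can be old; probe sets of several genes were not used. Where a gene had several single-gene probe sets, the 1 with the highest mean stood for it, and genes above the 25th percentile of these (5.49) were tested.

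Genotypes were compared with limma 3.58.1 in R 4.3.3 (lmFit, eBayes with a trend) over all 14993 genes, with Benjamini-Hochberg adjustment and a threshold of 0.05. The replicate sets were compared with genotype as a term, and correlations were tested with 100000 permutations. The code was tested on simulated data. The 8 genes, the lists and the replicate split were chosen with earlier results of these data known. Named were the 8 genes and, per list, the genes past the adjusted threshold (at most 6), otherwise the 3 with the smallest p and the 1 with the highest mean; per receptor, the 2 most correlated genes. All 7 such tetraspanin genes are named, and marker genes only where a result touches them. Python 3.11.15 with pandas 2.3.3, scipy 1.17.1 and matplotlib 3.10.9 was used for the rest. Alternatives covered normalization, filter, probe sets, variance model, array weights, replicate numbers and sets, markers of other cells and left-out arrays.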

Additional observations from a re-analysis of the deposited data

Results flagged for a closer look

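Tnfrsf17 had 1 array far from the others of its group: Zbtb32-/- replicate 6 read 7.88, with a gap of 0.72 to the next array that made up 0.787 of the group's range, above Dixon's critical value for 6 samples. It was the only 1 of 16 groups (8 genes in 2 genotypes) so marked, and chance marks about 1 in 20. The same array had the highest mean of markers of other cells, 8.63, where the other Zbtb32-/- arrays ran up to 7.99. Without it the genotype difference of Tnfrsf17 was -0.03, against -0.17 with all arrays. The part of other cells in this value was not tested.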

How the results depend on the processing

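Under 26 alternatives to the genotype fit, none of the 8 receptor genes passed the adjusted threshold, and 6 of 208 values changed sign. These were Tnfrsf17 in replicates 4 to 6 alone (0.04), Tnfrsf13b after renewed quantile normalization (-0.03) and Sdc1 in replicates 1 to 3 alone (-0.08), besides those from leaving out 1 array, where Tnfrsf13b ran from -0.02 to 0.17, Sdc1 from -0.01 to 0.19 and Cd28 from -0.29 to 0.03. The count of genes changed by genotype was 0 throughout, except 1 in replicates 4 to 6 alone; at an unadjusted p under 0.05 it ran from 458 to 1416 when 1 array was left out. Same-numbered arrays of the 2 genotypes deviated together with r of 0.468, 0.0187, 0.220, 0.0340, 0.135 and 0.156 for replicates 1 to 6, all above 0 and 4 of 6 over 0.1; the labels give no shared source, so the numbers were not taken to pair the arrays. With the replicate block 0 genes passed and 914 were under an unadjusted 0.05, against 642, and both replicate 1 arrays, Zbtb32-/- replicate 5 and wild-type replicate 6 correlated best with their own number, a hint from the data and not the design. The count between replicate sets, 977, was 585 after renewed quantile normalization, 1579 without the filter, 2 in Zbtb32-/- arrays alone, 23 in wild-type arrays alone, 27 with markers of other cells as a term, and 240 to 1193 without 1 array, lowest without wild-type replicate 1; fewer arrays enter the single-genotype fits, and otherwise the cause was not tested. The set difference of Cd44, 0.02, was -0.10 in wild-type arrays alone and -0.07 to 0.09 without 1 array; those of Sdc1 ran from -0.52 to -0.33 and of Cd81 from -0.50 to -0.28. The correlation of Tnfrsf17 with the plasma cell markers was -0.46 in replicates 1 to 3. The deposited values give no signal over background, so no limit of detection was set.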
